A study of Mus musculus with 4 samples.

Results

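DHX9 peaks that lay in a long noncoding RNA (lncRNA) gene and in no protein-coding gene made up 1276 of the 59563 peaks of the deposited list (2.14%, 95% interval 2.03 to 2.26%). A peak was a member when its midpoint fell in the body of a RefSeq gene of biotype lncRNA, on either strand, and in no gene of biotype protein-coding. Another 1419 peaks lay in a lncRNA gene and a protein-coding gene at once, 55205 lay in a protein-coding gene in all, and 2810 lay in no gene. The 1276 peaks fell in 282 of the 12727 lncRNA genes (2.22%), and 32 of them fell in more than 1 lncRNA gene and were counted for each. The study used FLASH, a CLIP-seq method: ultraviolet light crosslinks RNA to the proteins it touches, an antibody pulls out 1 protein, and the RNA fragments attached to it are sequenced. The cells were WT26, a male mouse embryonic stem (ES) cell line of C57BL/6x129sV background that grows without feeder cells and was kept in leukemia inhibitory factor. A rabbit antibody against DHX9 was used on 2 samples, and rabbit IgG served as the control antibody on 2 others, as replicates A and B of each. The list gives each peak's first base, last base and strand; its score field was empty for every peak, and neither read depth nor a value for a replicate or an IgG sample was at hand, so no error between replicates can be given.

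DHX9 is an RNA helicase that unwinds double-stranded RNA and is found mostly in the nucleus. LncRNAs are transcripts without a long reading frame, and many stay in the nucleus near the gene that makes them. Some lncRNA genes host small nucleolar RNAs (snoRNAs, guides for RNA modification) or microRNAs, which are cut out of the longer transcript.

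Sequence under the peaks was at hand for microRNA hairpins and for windows around annotated starts, both from RefSeq on GRCm38.p6. The hairpins are shown because they are folded, double-stranded segments inside bound lncRNA genes, and their sequences show how much of the fold the peaks covered. Of 11 hairpins on the strand of the peaks in these genes, 7 were touched by a peak and 1 lay wholly inside a peak. Capitals mark the bases under a peak, and each hairpin is written 5′ to 3′ on its own strand. Mir96 is at chr6:30169446-30169551 (minus strand), Mir182 at chr6:30165918-30165992 (minus) and Mir183 at chr6:30169668-30169737 (minus), all 3 in Mirc35hg. Mir92-1 is at chr14:115044427-115044506 (plus) in Mir17hg, Mir6516 at chr11:117077348-117077457 (plus) in Snhg20, Mir22 at chr11:75463716-75463810 (plus) in Mir22hg and Mir101a at chr4:101346945-101347027 (minus) in E130102H24Rik.
Mir96: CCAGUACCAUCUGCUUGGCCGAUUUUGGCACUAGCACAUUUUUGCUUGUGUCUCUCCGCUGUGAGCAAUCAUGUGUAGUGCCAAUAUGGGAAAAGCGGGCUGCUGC
Mir182: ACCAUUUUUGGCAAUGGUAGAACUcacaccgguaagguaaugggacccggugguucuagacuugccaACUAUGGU
Mir183: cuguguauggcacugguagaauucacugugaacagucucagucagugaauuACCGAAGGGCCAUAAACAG
Mir92-1: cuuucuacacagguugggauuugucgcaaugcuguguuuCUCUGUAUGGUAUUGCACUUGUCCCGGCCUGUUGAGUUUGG
Mir6516: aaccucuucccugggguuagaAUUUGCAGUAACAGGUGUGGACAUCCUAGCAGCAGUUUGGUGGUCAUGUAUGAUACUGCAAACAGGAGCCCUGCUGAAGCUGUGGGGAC
Mir22: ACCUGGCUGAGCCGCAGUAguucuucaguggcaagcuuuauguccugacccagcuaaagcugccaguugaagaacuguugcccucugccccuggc
Mir101a: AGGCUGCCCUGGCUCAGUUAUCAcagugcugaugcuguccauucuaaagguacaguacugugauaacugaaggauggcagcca

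Mir96 had all 106 of its bases under 1 peak of 292 bases, whose other end reached 19 of the 70 bases of Mir183. Mir182 had 32 of its 75 bases covered, 24 at the 5′ end and 8 at the 3′ end by 2 different peaks, so that its loop lay between the peaks. Mir6516 had 89 of 110 bases covered, and Mir92-1, a hairpin of the miR-17 cluster, had 41 of 80. Mir22 had 19 of 95 and Mir101a 23 of 83 bases covered. In 4 of the 7 touched hairpins, under 50% of the bases were covered, and these peaks lay mostly in the flanking transcript. Of the hairpins examined, the nearest to a peak without being touched was Mir16-1 in Dleu2, at 214 bases.

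The starts are shown because they place the edge of binding against the annotated first base. Each window runs from 250 bases before the start to 50 bases after it. There were 13 cases of a peak covering at least 30 bases of such a window, from 12 peaks, and 4 windows are written here 5′ to 3′ on the strand of the peak, with the bases under the peak in capitals. The Chaserr window is at chr7:73558346-73558645 (minus) and the Snhg12 window at chr4:132308428-132308727 (plus), and both peaks were on the strand of the gene. The window of Gm32820 at chr9:58463741-58464040 (minus) and that of Gm32420 at chr13:21222490-21222789 (minus) were covered by peaks on the plus strand, counted for 4930461G14Rik and Gm32525, and are therefore written on the plus strand, opposite to the gene whose start they hold.
Chaserr: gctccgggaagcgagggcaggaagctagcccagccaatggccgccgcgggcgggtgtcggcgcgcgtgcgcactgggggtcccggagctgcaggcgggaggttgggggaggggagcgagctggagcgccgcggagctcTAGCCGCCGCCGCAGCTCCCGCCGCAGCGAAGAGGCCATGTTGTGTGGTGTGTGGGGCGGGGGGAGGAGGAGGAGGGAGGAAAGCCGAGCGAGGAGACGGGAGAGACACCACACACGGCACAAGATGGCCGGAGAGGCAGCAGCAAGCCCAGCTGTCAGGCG
Snhg12: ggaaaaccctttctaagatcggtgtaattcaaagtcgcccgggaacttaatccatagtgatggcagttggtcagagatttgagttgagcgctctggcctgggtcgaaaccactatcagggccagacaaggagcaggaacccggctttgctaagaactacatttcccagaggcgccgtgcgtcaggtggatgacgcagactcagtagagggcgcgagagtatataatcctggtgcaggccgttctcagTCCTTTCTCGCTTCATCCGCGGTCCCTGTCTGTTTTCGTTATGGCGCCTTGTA
Gm32820: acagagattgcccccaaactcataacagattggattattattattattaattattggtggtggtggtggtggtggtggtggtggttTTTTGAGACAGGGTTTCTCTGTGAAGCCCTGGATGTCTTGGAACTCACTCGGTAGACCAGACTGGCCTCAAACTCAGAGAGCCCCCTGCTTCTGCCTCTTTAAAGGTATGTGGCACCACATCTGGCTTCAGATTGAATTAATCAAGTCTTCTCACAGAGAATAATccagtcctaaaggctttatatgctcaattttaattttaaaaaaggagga
Gm32420: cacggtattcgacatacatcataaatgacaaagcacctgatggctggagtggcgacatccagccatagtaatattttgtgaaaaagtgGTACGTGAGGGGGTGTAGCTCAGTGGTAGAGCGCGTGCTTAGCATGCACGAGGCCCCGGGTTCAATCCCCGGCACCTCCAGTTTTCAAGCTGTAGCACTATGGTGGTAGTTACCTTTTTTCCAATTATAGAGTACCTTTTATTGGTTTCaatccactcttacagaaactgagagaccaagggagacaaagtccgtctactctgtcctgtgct

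In Chaserr, which lies beside the chromatin remodeller gene Chd2 and is known to restrain its expression, the peak of 274 bases covered 162 bases of the window and so extended to both sides of the annotated start. In Snhg12, a snoRNA host, it covered the last 53 bases, from close to the annotated start inward. The peak over the Gm32820 window was 165 bases long and lay wholly inside it. The peak of 149 bases over the Gm32420 window covered the tRNA gene n-TAagc16, at which the annotated body of Gm32525 begins. Windows of bound lncRNA genes had a median GC content of 52.7% (255 windows), and all lncRNA windows had 48.3% (11588 windows). Windows were at hand for 217 of the 282 bound genes.

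Most bound lncRNA genes held 1 peak, and a few held very many. Pvt1, the lncRNA gene beside the oncogene Myc, held 111 peaks, or 8.70% of all members (7.27 to 10.4%). Platr22, a pluripotency-associated transcript, held 50, the clone-named gene 1110002L01Rik held 44, Gm51805 held 38 and Firre, an X-linked nuclear lncRNA, held 36. The 10 genes with the most held 418 peaks (32.8%). Over the 282 genes the median was 1 peak, with quartiles of 1 and 5 and a mean of 4.64, and 153 genes (54.3%) held exactly 1. Among the 4989 protein-coding genes with a peak (22.8% of 21900), the median was 5 and 23.3% held exactly 1. At least 3 peaks were found in 98 lncRNA genes (0.77% of all), at least 5 in 73, at least 10 in 33 and at least 20 in 13. All intervals on shares are Wilson intervals that cover counting error only, and peaks in 1 gene lie in runs and are not independent.

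**Figure D1:**
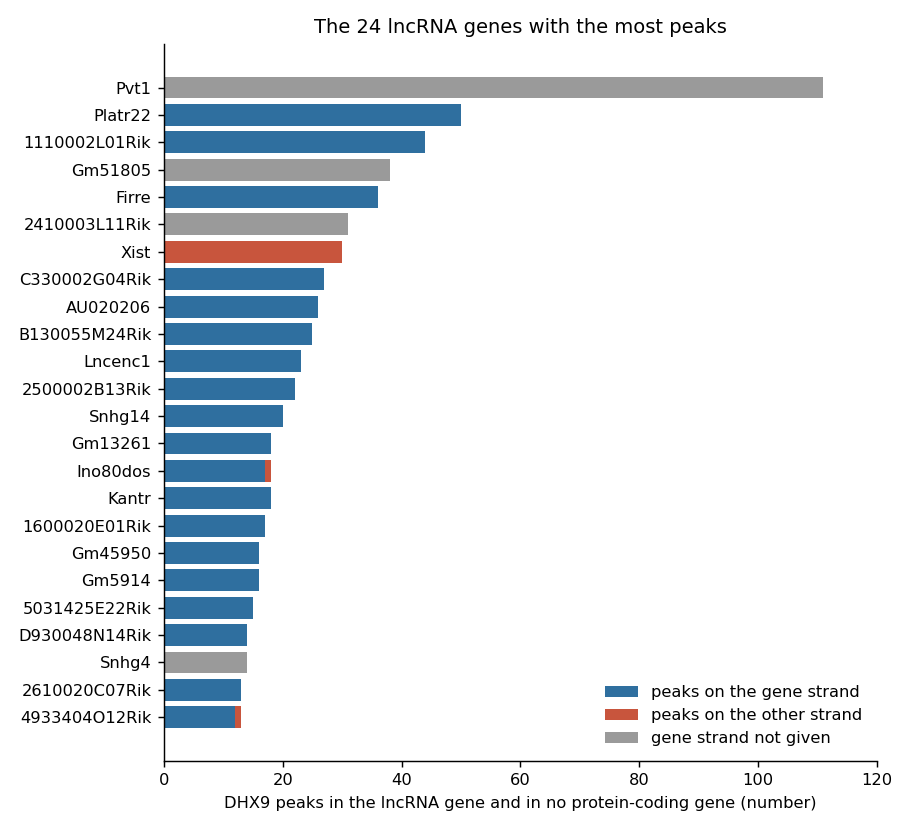
Bars give the number of peaks, in the lncRNA gene and in no protein-coding gene, for the 24 lncRNA genes with the most, coloured by whether the peaks lay on the annotated strand of the gene, on the other strand, or in a gene whose strand was not given. Pvt1 reaches 111, the next genes fall from 50 to 13, and Xist has all 30 peaks on the other strand.

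Longer lncRNA genes held a peak somewhat more often. The median length was 12.7 kb for bound genes and 8.43 kb for all lncRNA genes. Among lncRNA genes that overlap no protein-coding gene, 193 of 8146 held a peak (2.37%). Ordered by length into 5 equal groups, these held a peak in 1.66%, 1.78%, 2.82%, 2.27% and 3.31% of genes, from a median length of 1.84 kb to one of 41.5 kb. The interval of the shortest group (1.14 to 2.40%) did not overlap that of the longest (2.55 to 4.30%).

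**Figure D2:**
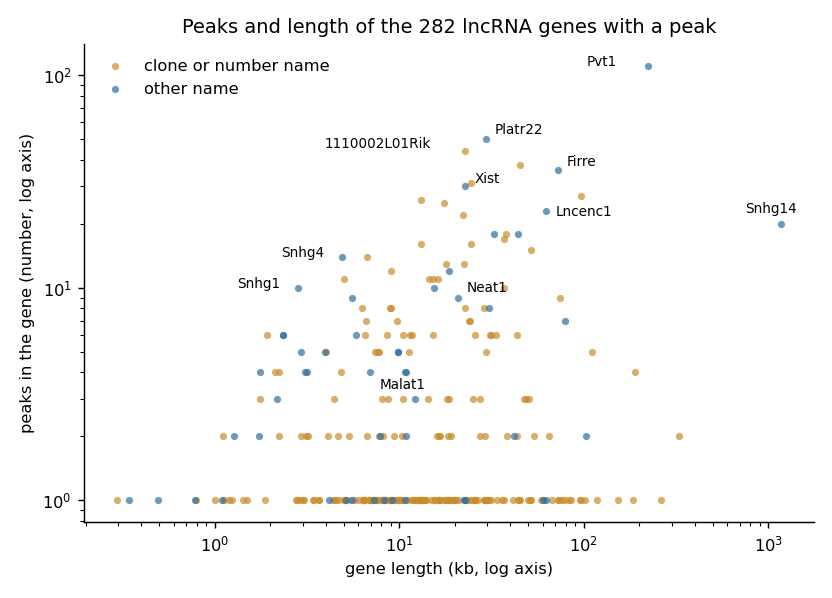
Each point is 1 of the 282 lncRNA genes with a peak, placed by gene length in kb and number of peaks, both on log axes, and coloured by whether the gene has only a clone or number name. Snhg14 is the longest and holds 20 peaks, while Snhg1 holds 10 in 2.84 kb.

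Per kb, 6 of the 8 leading genes were short snoRNA and microRNA hosts. Snhg1 had 10 peaks in 2.84 kb (3.52 peaks per kb), 2410006H16Rik had 6 in 1.93 kb (3.11 per kb) and Snhg4 had 14 in 4.91 kb (2.85 per kb). Mir17hg followed with 2.57 per kb, Snhg12 with 2.56 and Snhg3 with 2.28. The overlapping pair Gm30058 and D930048N14Rik had 2.2 and 2.08 per kb, largely from the same peaks. In genes of at least 1 kb and 3 peaks, the median was 0.576 peaks per kb in the 98 lncRNA genes (quartiles 0.288 and 1.26) and 0.351 in 3249 protein-coding genes (quartiles 0.140 and 0.763). These 2 medians are not like for like. Requiring 3 peaks sets a lowest possible density that is higher in shorter genes, and lengths were not matched. For lncRNA genes, only member peaks were divided by the whole body, including parts inside protein-coding genes. Peaks covered a median of 13.3% of the body of a lncRNA gene of at least 1 kb and 3 peaks. The covered share was 62.0% in 2410006H16Rik, 61.5% in Snhg4, 61.2% in Mir17hg and 58.6% in Snhg1. Among longer genes it was 56.8% in AU020206 (13.1 kb) and 52.8% in 1110002L01Rik (22.9 kb), and only 10.6% in Pvt1. Gene bodies here include introns, since exons were not analysed.

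In genes of at least 3 peaks, the median gap between neighbouring peaks on the same strand was 219 bases (195 to 241, 984 gaps). Of these gaps 18.5% were at most 50 bases and 15.1% were over 1 kb. The interval takes gaps of a gene as independent, and gaps in protein-coding genes were not computed. Member peaks had a median width of 191 bases (185 to 198), with quartiles of 141 and 271, from 20 to 812 bases. The median was 197 bases (196 to 198) for peaks in protein-coding genes and 179 (175 to 184) for peaks in no gene. Peaks were wider in genes that held more of them, from a median of 122 bases (112 to 138) for lone peaks to 171 (153 to 198) in genes of 2 to 4, 191 (182 to 203) in genes of 5 to 19 and 222 (207 to 231) in genes of 20 or more. The widest were 1 of 812 bases in AY036118 and 1 of 746 in Gm51805. Malat1, a nuclear speckle RNA, had 4 wide peaks of 711, 664, 495 and 594 bases in 6.98 kb. The narrowest was a peak of 20 bases in Gm36488. The part that read depth plays in widths was not tested, as depth is unknown.

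**Figure D3:**
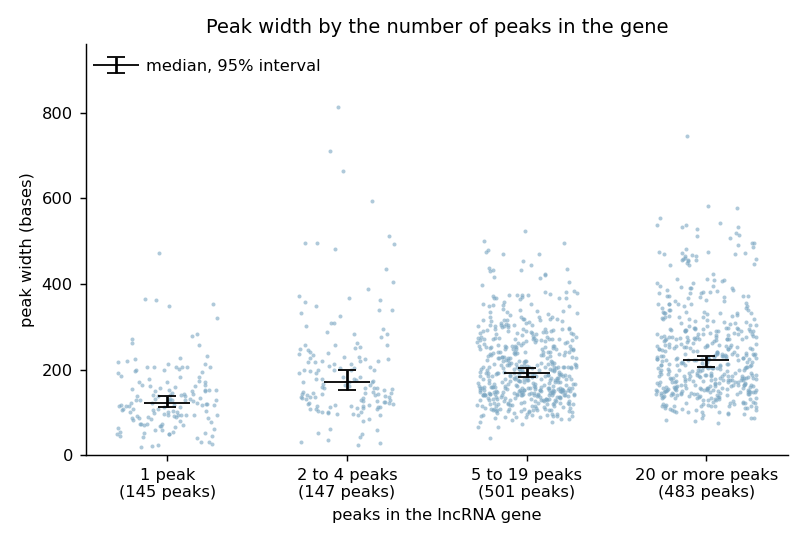
Points are the widths in bases of the 1276 peaks, grouped by how many peaks their lncRNA gene held, with the median and its 95% interval in black. The medians climb from 122 to 222 bases, and the groups overlap widely.

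Within a lncRNA gene the peaks shared a strand. In genes of at least 3 peaks, 14 of 1093 gene assignments (1.28%) were on the strand with fewer peaks, and 87 of the 98 genes had peaks on 1 strand only. Against the annotated strand, given for 217 of the 282 genes, 789 of 920 peaks (85.8%, 83.4 to 87.9%) were on the strand of a lncRNA gene that held them. In protein-coding genes 44986 of 45544 peaks were (98.8%, 98.7 to 98.9%), so that other-strand peaks made up a larger share in lncRNA genes. Peaks of a gene mostly share a strand, and the intervals take them as independent, so they do not measure this margin. No count by gene was made for protein-coding genes. Every peak was on the gene strand in 143 genes and on the other strand in 62.

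Xist, the RNA that coats the inactive X chromosome in female cells, was the largest other-strand case. Its body (chrX:103460373-103483233, minus strand) held 30 peaks, all of them on the plus strand (0 on minus). Tsix, the antisense transcript known to hold Xist down in ES cells, spans this body (chrX:103431517-103484957) and held 53 peaks, all on the plus strand, of which 23 lay outside Xist. The peaks came at 1.31 per kb inside the Xist body and 0.752 per kb in the rest of Tsix. Tsix has the biotype antisense RNA in the table and is therefore not among the lncRNA genes. Without Xist, 88.7% of peaks were on the gene strand.

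Among the other genes with other-strand peaks, some overlapped another lncRNA gene on that strand: all 11 peaks of Gm30058 lay in D930048N14Rik and all 7 of Gm32820 in 4930461G14Rik. In Gm1976 7 of 9 peaks and in 1500004A13Rik 3 of 3 lay on the other strand, where the table has a transcribed pseudogene whose strand is not given. Others had no other annotated gene at the peaks. 4930444M15Rik had 8 of 8 peaks on the other strand, the first of them 9363 bases past the end of the bound protein-coding gene Tsc22d1. Gm51534 had 5 of 5, the first of them 937 bases past the end of Fkbp8, and Gm30363 had 6 of 6. Of 155 other-strand assignments, 24 lay in another annotated lncRNA gene of that strand.

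Genes with a lone peak were often hit on the other strand. This was so in 47 of 119 such genes of known strand (39.5%, 31.2 to 48.5%), and in 43 of 105 (41.0%) once peaks over small RNA genes were set aside. Among genes of 2 to 4 peaks, 9 of 44 (20.5%, 11.2 to 34.5%) had every peak on the other strand, and among genes of 5 or more, 6 of 54 (11.1%, 5.19 to 22.2%). The intervals for lone peaks and for 5 or more did not overlap. Peaks on the other strand had a median width of 175 bases (147 to 194), against 198 (188 to 206) on the gene strand, and these intervals overlapped. Lone peaks of either strand had a median of 122 bases, and widths by strand were not compared among genes with like numbers of peaks.

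**Figure D4:**
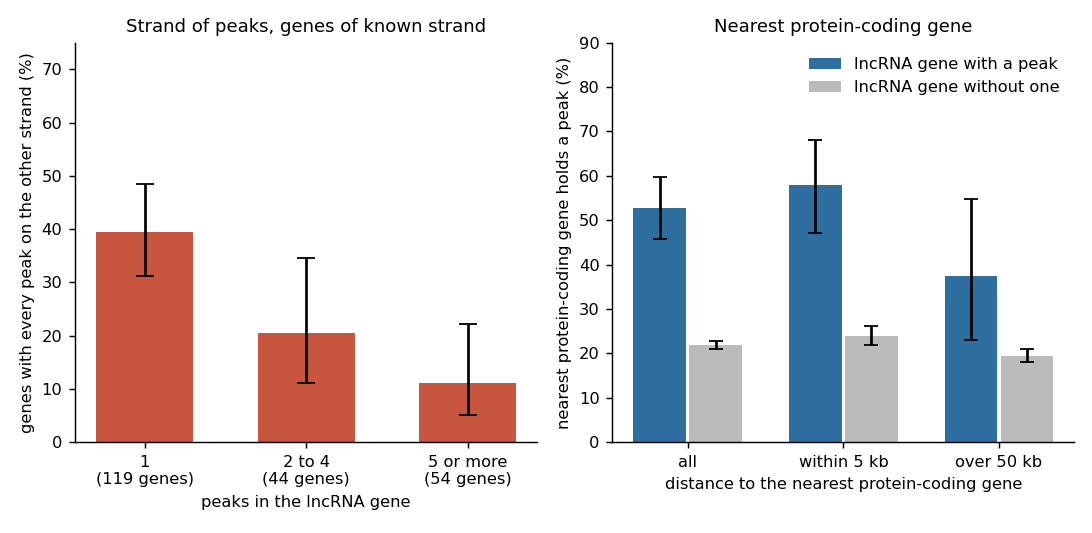
The left panel gives the percentage of lncRNA genes of known strand whose every peak lay on the other strand, by number of peaks in the gene, and the right panel the percentage of lncRNA genes, with and without a peak, whose nearest protein-coding gene held a peak. Error bars are 95% Wilson intervals; the left bars fall from 39.5% to 11.1%, and the right bars stand at 52.8% against 22.0% over all distances.

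Averaged over genes, peaks were fewest towards the 3′ end as read here. In genes with every peak on the annotated strand and no protein-coding overlap, this was slight. In 87 lncRNA genes with at least 3 peaks on 1 strand, each body was divided into 5 equal segments, and the average share of peaks from the first to the last was 24.4%, 23.4%, 20.7%, 19.6% and 11.9%. The first segment held more peaks than the last in 40 genes, fewer in 21 and as many in 26. In the 57 of these genes that overlap no protein-coding gene, the first segment held 22.0% and the last 14.6%, with more in the first in 24 and in the last in 16. In the 59 with every peak on an annotated strand, the first held 18.8% and the last 15.2%. In the 39 that met both conditions, the shares from first to last were 18.5%, 19.5%, 21.6%, 22.5% and 17.9%. No member can lie where a body overlaps a protein-coding gene. Genes without an annotated strand were read along their peaks, and genes with every peak on the other strand along the annotated one. Protein-coding genes had 25.2% in the first and 13.4% in the last segment (3103 genes). Of 789 peaks on the gene strand, 57 (7.22%) lay within 1 kb of the annotated start.

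Single genes had distinct layouts. In Pvt1, whose strand the tables do not give and which was read along its peaks, 77 of 111 peaks lay in the first 44.4 kb (1.73 per kb) and 34 in the remaining body (0.191 per kb). In Lncenc1, an ES cell lncRNA, the first peak lay 48.1 kb into a body of 62.7 kb, and 18 of 23 were in the last segment. Firre had 2 blocks, with 14 peaks in the first segment, 3 in the next, 0 in the middle, 14 in the fourth segment and 5 in the last. Platr22, AU020206 and B130055M24Rik had peaks spread over most of the body. Snhg14 had its 20 member peaks between 468 and 479.8 kb from the start of a body of 1177 kb. That body held 39 peaks of any kind, and those that were not members also lay in a protein-coding gene.

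**Figure D5:**
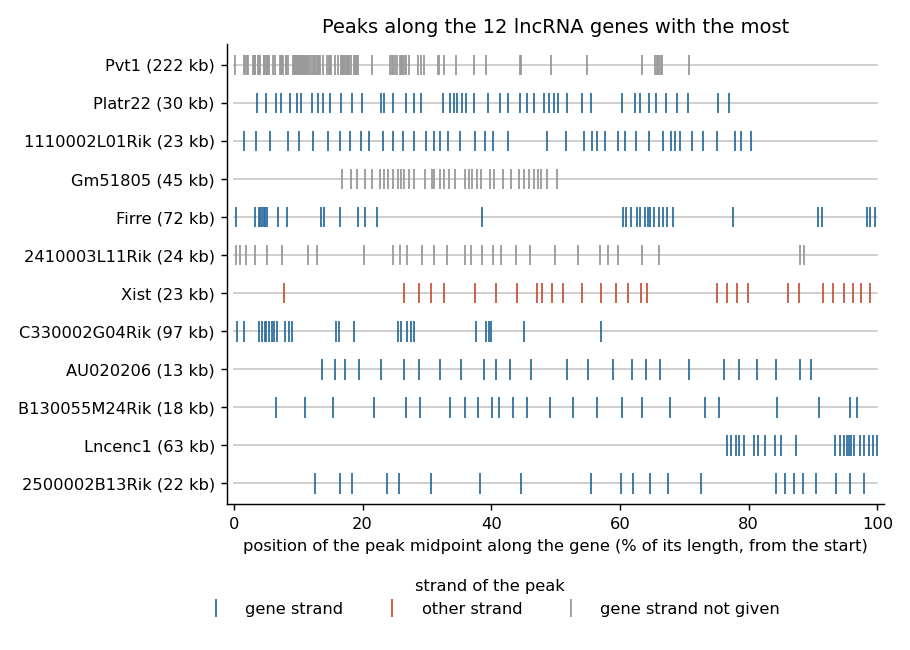
Each tick is the midpoint of 1 peak along the 12 lncRNA genes with the most, as a percentage of gene length from the start, read along the annotated strand or, where it is not given (grey), along the strand of the peaks. Ticks crowd the first segment of Pvt1 and the last segment of Lncenc1, form 2 blocks in Firre, and run through most of Platr22 and 1110002L01Rik.

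Genes known only by a clone or number name made up 230 of the 282 bound lncRNA genes. They held 797 of the 1276 peaks (62.5%, 59.8 to 65.1%). Of all 12316 lncRNA genes so named, 1.87% held a peak, against 52 of 411 with another name (12.7%, 9.78 to 16.2%). The median was 1 peak in the former and 4 in the latter. Among Gm symbols 148 of 10127 were bound (1.46%), among Rik symbols 69 of 1788 (3.86%) and among LOC symbols 6 of 310 (1.94%). RNA levels of these genes were not analysed here, and their part in the difference was not tested.

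The clone-named genes with the most peaks mostly lay next to protein-coding genes. 1110002L01Rik (chr12:3403883-3426747, minus) had 44 peaks with a median width of 267.5 bases, in the stretch between the 3′ end of the kinesin gene Kif3c and the start of Asxl2, a Polycomb-associated gene that held 57 peaks. Gm51805 (chr10:62865670-62910643) had 38 members, and 66 peaks with those that also lie in Tet1, which encodes a DNA demethylating enzyme and held 151. All 38 were on the strand of Tet1 and lay before its annotated start, at 485 to 15528 bases. For these peaks, a longer transcript of Tet1 and a separate lncRNA on the same strand cannot be told apart.

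2410003L11Rik (chr11:97598511-97622893) had 31 peaks, all on the plus strand, and Epop, which encodes a Polycomb-associated protein, was its nearest protein-coding gene with 3. C330002G04Rik (chr19:22978747-23075906, minus) had 27, of which 59.3% lay in the first of 5 equal segments. AU020206 (chr7:75769038-75782120, minus) had 26 peaks with a median width of 237.5 bases, in a gene 14.4 kb from its nearest protein-coding neighbour Akap13. B130055M24Rik (chr7:127448390-127465911, plus) had 25, between the genes Zfp689 and Prr14.

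2500002B13Rik (chr8:57487963-57510262, plus) had 22 peaks between Sap30, a histone deacetylase complex subunit gene that held 0 and was nearest to 8 of them, and the chromatin protein gene Hmgb2, which held 1 and was nearest to 14. Gm13261 (chr2:10327340-10365161, minus) had 18, all facing away from the start of Sfmbt2, an imprinted Polycomb-group gene with 42 peaks. 1600020E01Rik (chr6:86527330-86564449, plus) had 17 beside Pcbp1, an RNA-binding protein gene with 3. Gm45950 (chr17:88066125-88090544, plus) had 16, of which 11 lay within 5 kb of the start of Fbxo11, a ubiquitin ligase subunit gene with 29 peaks.

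The median distance from a peak to the nearest protein-coding gene was 11.7 kb (10.2 to 13.3). It was within 1 kb for 5.80% of peaks, within 5 kb for 27.7% and within 50 kb for 74.8%. That gene itself held a peak for 743 of the 1276 (58.2%). Counted by gene, among lncRNA genes clear of protein-coding genes, the nearest protein-coding gene held a peak for 102 of 193 bound genes (52.8%, 45.8 to 59.8%) and for 1747 of 7953 others (22.0%, 21.1 to 22.9%). The same held within 5 kb, with 58.0% (47.2 to 68.2%) against 23.9% (21.9 to 26.1%), and beyond 50 kb, with 37.5% (22.9 to 54.7%) against 19.5% (18.2 to 20.9%). Bound genes also lay closer to their neighbour, at a median of 8.39 kb against 31.7 kb. Whether RNA was made in each gene was not analysed here, and its part in these shares was not tested.

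Peaks close to a protein-coding gene often pointed away from its start. Of 269 peaks within 5 kb and with both strands known, 144 (53.5%, 47.6 to 59.4%) were on the strand opposite to the gene and before its start, against 29.1% (25.7 to 32.7%) of the 646 farther away. They came from 43 lncRNA genes, led by 1110002L01Rik with Asxl2 and Gm45950 with Fbxo11 (11 peaks each), D930048N14Rik with N4bp3 and Snhg1 with the amino acid transporter gene Slc3a2 (10 each). By gene, within 5 kb, the lncRNA and protein-coding starts faced away from each other in 24 of 53 bound lncRNA genes (45.3%, 32.7 to 58.5%) and in 544 of 1009 others (53.9%, 50.8 to 57.0%), so this arrangement was not more frequent among bound genes.

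Of 20 snoRNA host lncRNA genes listed, 15 held a peak. The median was 3.5 peaks over the list and 0 over all lncRNA genes. A peak was held by 2.22% of all lncRNA genes and by 12.7% of those not named by clone or number. Snhg14, which hosts the imprinted snoRNA clusters of the Prader-Willi region, had 20, Snhg4 14, Snhg1 10 and Snhg12 6. Gas5, a growth-arrest transcript, and Zfas1, antisense to Znfx1, had 5 each. Snhg3, Snhg7, Snhg11 and Snhg15 had 4 each, Snhg20 3, Dancr and Snhg17 2 each, and Snhg8 and Snhg16 1 each. Snhg5, Snhg6, Snhg9, Snhg10 and Snhg18 had 0, although Snhg6 and Snhg9 each had 1 peak that also lay in a protein-coding gene.

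In several of these hosts, peaks lay over the small RNA itself, though in Snhg11, Snhg15 and Snhg17 none did. Over all members, 79 of 1276 peaks (6.19%, 5.0 to 7.65%) overlapped a snoRNA, microRNA, snRNA, tRNA or guide RNA gene, against 0.427% (0.376 to 0.485%) of peaks in protein-coding genes. They overlapped 36 snoRNA, 25 tRNA, 11 microRNA, 3 snRNA and 2 guide RNA genes by at least 1 base. Of the microRNA genes, Mir1949, Mir124a-1, Mir3078 and Mir6236 were not among the hairpins examined above. In Snhg1 all 8 hosted snoRNAs were under 8 of its 10 peaks, and in Snhg12 all 4 under 4 of 6. 2410006H16Rik had all 3 under 3 of 6 peaks and Zfas1 all 3 under 3 of 5. In Gas5, 4 of 8 were under member peaks, and 7 of 8 once the 3 peaks that also lie in Zbtb37 were counted. Snhg14 had 2 of its 207 hosted small RNA genes under a peak. Of 57 bound genes that host a small RNA gene, 42 had at least 1 under a peak. Some genes count as bound only through such a peak, since leaving out peaks over small RNA genes left 258 of the 282 bound genes. For hosts of that kind the outcome was fixed by the choice of bound genes. Any overlap of 1 base counted, and peaks covered 58.6% of the Snhg1 body, 62.0% of 2410006H16Rik, 46.9% of Zfas1 and 42.4% of Snhg12. Whether small RNA genes were overlapped more than the rest of these bodies was not tested.

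Some of the thinly bound genes held a tRNA gene under their peak. Of the 153 genes with a lone peak, that peak overlapped a small RNA gene in 18 and a tRNA gene in 12. In Gm32525, all 5 hosted tRNA genes were under 5 of its 6 peaks. Lone peaks over small RNA genes had a median width of 72.5 bases (50 to 153), and the other lone peaks 130 (115 to 141). Reads from near-identical tRNA and snoRNA copies can be placed at more than 1 copy, and how the authors' alignment treated them is not given in the sources used here.

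Of 12 microRNA host lncRNA genes listed, 3 held a peak: Mir17hg and Mir124a-1hg with 6 each and Mir22hg with 1. This was 25% of the list, against 2.22% of all lncRNA genes and 12.7% of those not named by clone or number. Mir17hg, host of the miR-17 cluster, had all 6 on its strand with a median width of 239.5 bases. The gene body used here held 1 small RNA gene, Mir92-1, so other hairpins of the cluster were not examined. Mir124a-1hg had 2 microRNA genes under its peaks. Mirc35hg, outside the list, held 10 peaks, with Mir182, Mir183 and Mir96 under 3 of them.

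Of 18 nuclear and X-linked lncRNA genes listed, 7 held a member peak (38.9%). The share was 2.22% over all lncRNA genes and 12.7% over those not named by clone or number. Pvt1 led with 111, followed by Firre with 36, Xist with the 30 other-strand peaks above and Snhg14 with 20. Neat1, the scaffold of paraspeckles, had 9 peaks with a median width of 348 bases, all between 0.370 and 5.23 kb from the start of a body of 20.8 kb as read along them. Malat1 had 4 that covered 35.3% of its body, and Ftx, in the X-inactivation centre, had 1. Jpx, Airn, Meg3, Rian, Mirg, H19, Miat, Norad, Tug1 and Lncpint had 0 peaks of any kind. Kcnq1ot1, an imprinted antisense transcript, had 0 members but 34 peaks that also lay in the overlapping protein-coding gene, all on its own minus strand. Among 10 imprinted lncRNA genes listed, Snhg14 was the 1 with a member. That share of 10% was close to the 12.7% of genes not named by clone or number.

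Of 26 ES cell and developmental lncRNA genes listed, 9 held a peak (34.6%), against 2.22% of all lncRNA genes and 12.7% of those not named by clone or number. Platr22 had 50 peaks on its strand over 29.5 kb (chr1:136696211-136725728), which covered 42.5% of its body. Lncenc1 had 23, Platr4 9, Platr20 8, Platr14 3, Platr27 2, and Platr3 and Platr10 1 each. Halr1, beside the Hoxa cluster, had 1. Another 16 had 0 peaks of any kind, namely Platr6, Platr7, Platr9, Platr26, Lncppara, Panct2, Oip5os1 and Tunar as well as Hotair, Hottip, Fendrr, Evx1os, Six3os1, Haglr, Rmst and Trp53cor1. Sox2ot had 0 members and 6 peaks that also lay in a protein-coding gene. Among protein-coding markers, 11 of 12 for ES cells held a peak, against 1 of 6 for fibroblasts (Fn1, with 63) and 1 of 6 for trophoblast and differentiated cells (Tubb3, with 7). Over all protein-coding genes the share was 22.8%, so the counts for the latter 2 lists were close to the background. Absence of a peak does not show absence of the RNA or of binding, since depth is unknown.

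On chromosomes 15 and X, among others, most members lay in a few leading genes. On chromosome 12, for example, 1110002L01Rik held 44 of 61. Chromosome 15 held 122 peaks (9.56% of members, 3.84% of all peaks), 111 of them in Pvt1. The X chromosome held 94 (7.37% of members, 2.13% of all peaks), 84 of them in Firre, Xist and Kantr. By genes, 3.11% of the 289 lncRNA genes of X were bound and 1.67% of the 539 of chromosome 15. Chromosome 11 had the most bound lncRNA genes, 35 of 752 (4.65%), with 117 peaks (9.17% of members, 12.3% of all peaks). Its leading gene, 2410003L11Rik, held 31 of them.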

How the data were processed

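FLASH libraries from 2 DHX9 and 2 IgG pulldowns entered 1 deposited peak list. PEAKachu is named as the peak caller in the file's source column. Its version, its settings and the use made of the IgG samples were not given in the sources at hand. The submitters' processing notes name Bowtie2 2.2.6 and the builds hg19 and mm10 without a role, and the list was read as mm10, which its chromosome names fit. The deposited values used are the first and last base of each peak, 1-based, and the strand. The authors' list holds no score, count or depth, so no test between pulldowns could be made and no sequencing depth is known.

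Peaks were placed by midpoint on gene bodies of the RefSeq table for GRCm38.p6 (49980 placed genes, no exons), with Python 3.11.15, pandas 2.3.3, numpy 2.4.6 and scipy 1.17.1. Gene strands came from the RefSeq promoter table and were given for 217 of 282 bound lncRNA genes. Wilson 95% intervals cover counting error only. The steps were tested on simulated data, where 200 of 200 planted genes came back with their count and strand. Named by rule were the 12 lncRNA genes with the most peaks, the 8 with the most per kb (at least 1 kb and 3 peaks), the 10 clone-named genes with the most, listed genes with a peak, and the protein-coding gene nearest to each; other genes, among them Kantr, Mirc35hg, Chaserr, AY036118, Gm32525 and the other-strand cases, were chosen after their values were seen. Members and lists were chosen with earlier results of these data known, and no comparison is a test. Peaks in repeats, exons and introns were not analysed here.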

Additional observations from a re-analysis of the deposited data

How the results depend on the processing

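Of the recomputed values, 39 stayed within their interval or within 1.5 times the count, 15 moved and none changed direction. Dropping peaks narrower than the median left 619 peaks in 137 genes, with a median width of 271 bases by construction, 40.2% of peaks in the 10 leading genes, 88.9% on the gene strand and 3.23% over small RNA genes. Merging peaks within 50 bases raised the median width to 203 bases. Without peaks within 5 kb of a protein-coding gene, the 10 leading genes held 41.6% and small RNA genes lay under 3.90%. Without chromosomes 8 and 11, the 10 leading genes held 38.1% and 24.3% of peaks lay within 5 kb of a protein-coding gene. With genes that overlap no other gene alone, the 10 leading genes held 47.5%. Requiring 3 peaks left 98 genes. Among alternatives chosen after seeing the data, leaving out Xist gave 88.7% on the gene strand and leaving out Pvt1 gave 28.3% in the 10 leading genes. For the shares the cause was not tested. Of the recomputed counts for the 12 genes with the most peaks, 12 moved by over 1.5 times, 8 of them with the wider peaks alone. Leaving out the peaks within 5 kb gives no share within 5 kb, and leaving out those over small RNA genes gives no share over them. No paired analysis was possible because the list holds no value for any sample, and no replicate could be left out for the same reason.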
